A study of Homo sapiens with 8 samples.

Results

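Chemokines are small secreted proteins that guide moving white blood cells, and chemokine receptors are the membrane proteins that read them. The genes described here are those whose symbols in the deposited table are CCL, CXCL, CCR or CXCR followed by a number, with the copy genes of CCL3 and CCL4, and with XCL1, XCL2, CX3CL1 and CX3CR1. The choice used names only and no measured value. It gave 61 of the 26830 genes in the table: 27 CC ligands, 17 ligands of the CXC, C and CX3C classes, and 17 receptors. CXCL8, also known as IL8, is among them.

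Polyadenylated RNA was sequenced from NOMO-1 and MOLM13, established human acute myeloid leukaemia lines, in 8 libraries. Cells carried a lentiviral short hairpin RNA, either shALKBH5 (hairpin #1, against the RNA demethylase ALKBH5) or shNS (the control hairpin), and all had been selected with puromycin. The 4 groups of 2 libraries were NOMO-1 shNS (replicates 1 and 3), NOMO-1 shALKBH5 (replicates 2 and 3), MOLM13 shNS (replicates 1 and 3) and MOLM13 shALKBH5 (replicates 1 and 3). Sources differ on the time of selection, 4 days in the design text and 1 week in the sample protocols, and the latter name a virus against FTO and drugs that no sample label lists. Only 1 hairpin against ALKBH5 was used, and no source states whether libraries of the same group were grown apart. The p-values therefore measure only how these libraries vary, which may be technical.

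ALKBH5 (chromosome 17, 18183078 to 18209954, GRCh38) was at 70.4 and 71.8 TPM in NOMO-1 shNS and at 15.1 and 14.2 TPM in NOMO-1 shALKBH5. In MOLM13 it was at 45.7 and 45.8 TPM in shNS and at 9.45 and 7.35 TPM in shALKBH5, so the labels of all 8 libraries held. The myeloid genes PTPRC, CD33 and SPI1 were at 64.5 TPM or more in every library. The summed level of 10 myeloid markers moved with the groups, from 1428 and 1460 TPM to 3173 and 3127 TPM in NOMO-1 and from 10721 and 10168 TPM to 20663 and 13267 TPM in MOLM13, and most of it was LYZ and CD68. Single markers went both ways: CSF1R, CD68 and LYZ rose and CD33 and CEBPA fell in NOMO-1, while CD33, CD68 and LYZ rose and PTPRC, MPO, FLT3 and ITGAM fell in MOLM13. MPO went from 384 and 457 TPM to 19.3 and 16.4 TPM in MOLM13. The part of these markers in the results below was not tested. The lymphoid markers CD3D, CD3E and GNLY stayed at or below 0.3 TPM, and MS4A1 and the epithelial marker EPCAM were listed at 0 in all. NKG7, a gene of cytotoxic lymphocytes, was an exception at 309 to 377 TPM in NOMO-1, and HBB, a haemoglobin gene, was listed at 14.0 TPM in MOLM13 shALKBH5 replicate 3 and at 0 elsewhere. TPM is the length-scaled share of a transcript in its library, so levels of different genes can be compared, but the read depth is unknown. In such bulk samples fewer cells of a kind and less RNA per cell cannot be told apart. The libraries of MOLM13 shALKBH5 stood furthest apart: their log2 difference had an SD of 0.53 across genes averaging 10 TPM or more, against 0.133 to 0.184 in the other groups.

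Chemokine receptors are seven-pass membrane proteins that signal through inhibitory G proteins to steer migration and adhesion. CC ligands such as CCL2 and CCL7 mainly attract monocytes, CXC ligands such as CXCL8 and CXCL2 attract neutrophils, and CXCL9, CXCL10 and CXCL11 are induced by interferon and attract T cells through CXCR3. Monocytes and their leukaemic relatives both make chemokines and read them, and CXCR4, the receptor of CXCL12, holds blood stem cells and leukaemia cells in the bone marrow.

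Most of the family was silent or nearly so. Of the 61 genes, 9 were listed at 0 in all 8 libraries (CCL3L1, CCL11, CCL13, CCL14, CCL17, CCL21, CX3CL1, CXCL5 and CXCL12), and 33 reached 1 TPM in at least 1 library. In single libraries 14 to 28 genes reached 1 TPM and 7 to 18 reached 5 TPM, and both extremes came from MOLM13 shALKBH5, with 28 and 18 genes in replicate 1 and 14 and 7 in replicate 3. Because a zero may also stand for an estimate that failed, such genes are called listed at 0. CXCR4 was the most abundant receptor in all 8 libraries, with 83.8 to 91.6% of the summed receptor TPM in NOMO-1 and 61.1 to 65.4% in MOLM13, although its ligand gene CXCL12 was listed at 0 throughout. CCL5, a ligand of CCR1 and CCR3, was the most abundant ligand in the 4 NOMO-1 libraries and in MOLM13 shALKBH5 replicate 3. CXCL8 was the most abundant in the other 3 MOLM13 libraries.

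**Figure D1:**
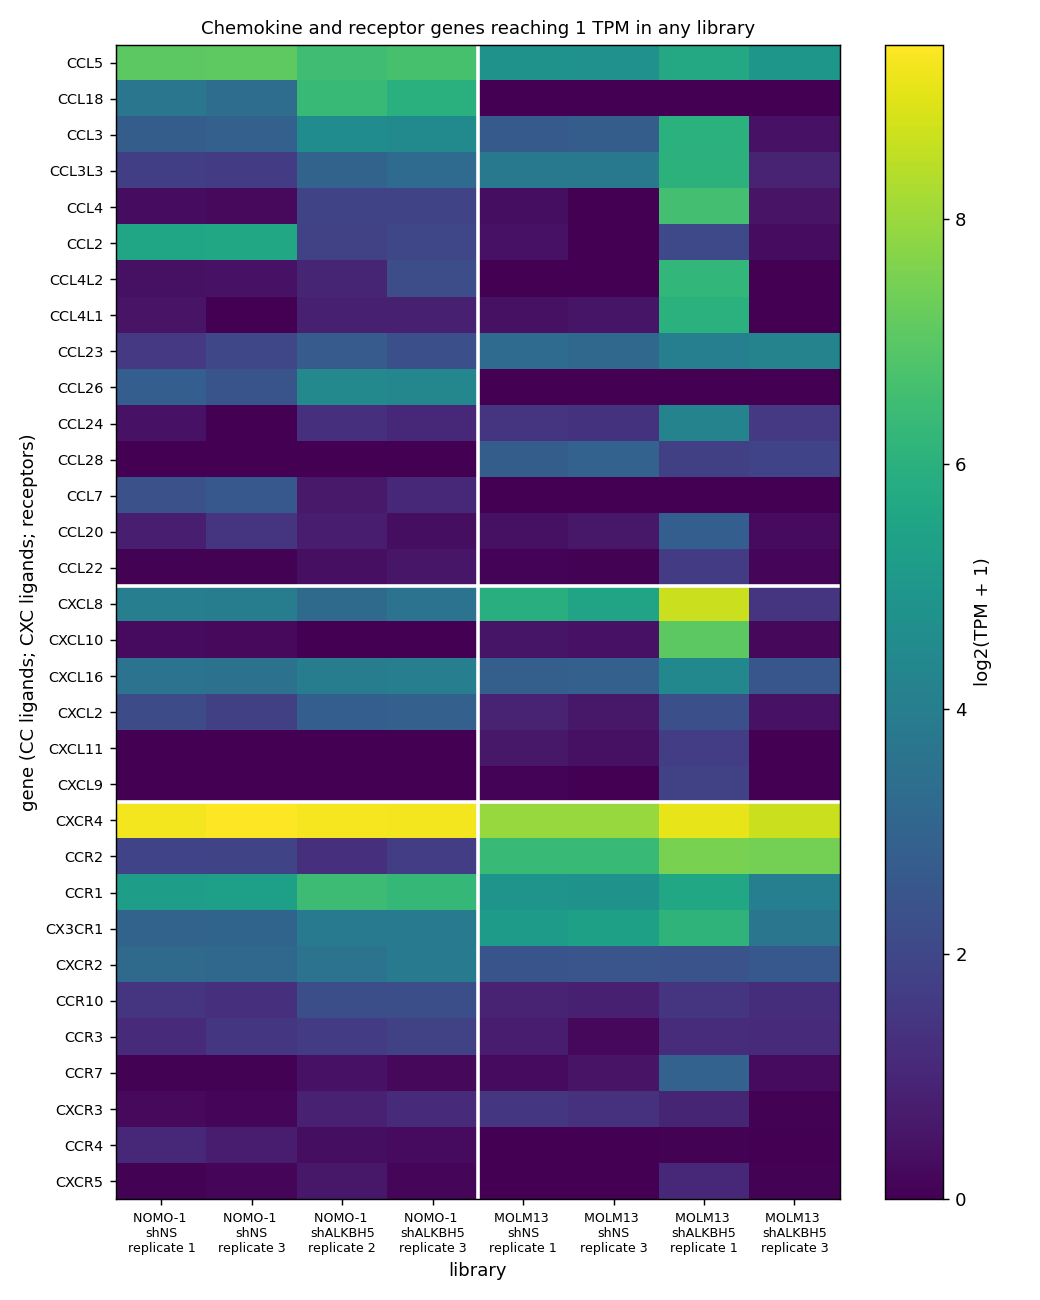
Level of 32 chemokine and receptor genes that reached 1 TPM in any library, as log2(TPM + 1) by colour, with genes in rows and the 8 libraries in columns. CXCR4 is the brightest receptor row in every column, and many ligand rows are bright in MOLM13 shALKBH5 replicate 1 alone.

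Of the 61 genes, 25 had at least 1 TPM in at least 2 libraries and were tested with limma on log2(TPM + 1), together with all other genes that passed this filter (14302 in all). A gene is called when its p-value, adjusted over all of these, is under 0.05. Of the 25 tested, 13 were CC ligands, 3 were CXC ligands (CXCL2, CXCL8 and CXCL16) and 9 were receptors. The other 36 were left out of the test. Of these, CCL4L1, CXCL10 and CCR7 reached 63.3, 131 and 6.89 TPM in MOLM13 shALKBH5 replicate 1, and stayed under 1 TPM elsewhere. CCL22, CXCL9 and CXCL11 reached 2.23, 2.57 and 2.27 TPM in that library, and CCR4, CXCR5 and CCL8 peaked at 1.13, 1.12 and 0.88 TPM. Each of the remaining untested genes stayed under 1 TPM in every library.

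The first comparison asked which chemokine genes differed between the NOMO-1 groups. The monocyte attractants CCL2 and CCL7 fell, while CCL18, a product of macrophages, CCL26, a ligand of the eotaxin receptor CCR3, CCL23, a ligand of CCR1, and the receptor genes CCR10 and CXCR2 rose. In total 5 of the 25 tested genes were higher and 2 lower, that is 28%, and 43.6% of all 14302 genes tested were called in this comparison (28.6% higher, 15% lower). In this fit of all 8 libraries the family's share of calls was thus below that of all genes. With NOMO-1 fitted alone it was not, at 18 of 25 beside 63.8% of all genes. The family's median log2 fold change in the fit of all 8 libraries was 0.71, beside 0.16 over all genes tested.

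CCL2 and CCL7 lie next to each other in the CC ligand cluster of chromosome 17 (CCL2 at 34255218 to 34257203, CCL7 at 34270221 to 34272242, both on the plus strand, GRCh38) and share the receptor CCR2. CCL2 was at 45.9 and 47.7 TPM in the control libraries and at 2.51 and 2.97 TPM in NOMO-1 shALKBH5, 17.1 times lower by group mean. The groups lay far apart, by -3.68 on the log2 scale (SE 0.53, limma adjusted p = 0.0026). CCL7 read 4.01 and 5.01 TPM in shNS against 0.57 and 1.14 TPM in shALKBH5, 5.27 times lower, with a log2 fold change of -1.58 (SE 0.18, adjusted p = 0.0011). Neither group overlapped the other for either gene, though how many of all genes separated in this way was not counted. CCL8, CCL11, CCL13 and CCL1, which lie in the same stretch of the chromosome, were at most 0.21 TPM in the NOMO-1 libraries.

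CCL18 (chromosome 17, 36064280 to 36072032) stood at 11.8 and 9.43 TPM without knockdown and at 81.6 and 62.5 TPM with it. It was 6.78 times higher, with a log2 fold change of 2.65 (SE 0.17, adjusted p = 0.00033). CCL26 (chromosome 7, 75769533 to 75789896) had 6.00 and 4.49 TPM in shNS and 20.5 and 19.4 TPM in shALKBH5, 3.80 times higher (log2 fold change 1.75, SE 0.14, adjusted p = 0.00047). CCL24, its neighbour on chromosome 7 and another CCR3 ligand, was at 0.37 TPM and listed at 0 in the controls, against 1.41 and 1.05 TPM after knockdown. It was not called (log2 fold change 0.93, SE 0.77, adjusted p = 0.38). CCL23 went from 1.97 and 3.04 TPM to 5.50 and 3.97 TPM (log2 fold change 0.71, SE 0.2, adjusted p = 0.027), and its lowest knockdown value was close to its highest control value. Of 18 alternatives 9 kept the CCL23 call, with adjusted p up to 0.25 in the others. It ended with NOMO-1 fitted alone (0.073) and without NOMO-1 shNS replicate 1 (0.15), NOMO-1 shALKBH5 replicate 2 (0.15), MOLM13 shNS replicate 1 (0.056) or MOLM13 shNS replicate 3 (0.056).

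CCL3 and CCL4, inflammatory ligands made by activated monocytes, have near-identical copy genes between which reads can be split, so the values of CCL3, CCL3L3, CCL4, CCL4L1 and CCL4L2 are uncertain one by one. CCL3 was at 5.81 and 6.48 TPM in NOMO-1 shNS and at 23.3 and 21.4 TPM in NOMO-1 shALKBH5. CCL3L3 was at 2.34 and 2.08 TPM and at 6.92 and 8.77 TPM, and CCL4 at 0.25 and 0.18 TPM and at 2.84 and 2.85 TPM. The knockdown libraries were above the controls for each, yet none was called, with log2 fold changes of 1.71, 1.46 and 1.66 and SEs of 1.57, 1.45 and 1.73. Those SEs pool the spread of all groups, and the MOLM13 shALKBH5 libraries differed greatly in these genes. With NOMO-1 fitted alone, the SEs were 0.09 for CCL3, 0.14 for CCL3L3 and 0.05 for CCL4, and the adjusted p-values 0.0017, 0.0044 and 0.0011.

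CCL5 (chromosome 17, 35871491 to 35880793) was at 132 and 136 TPM in NOMO-1 shNS and at 92.2 and 101 TPM after knockdown. It was not called (log2 fold change -0.47, SE 0.22, adjusted p = 0.14). The knockdown values lay below the controls, and with median-of-ratios scaling CCL5 was called as lower (-0.68, adjusted p = 0.0036). The neutrophil attractant CXCL8 had 15.3 and 14.4 TPM in shNS and 8.58 and 10.9 TPM in shALKBH5 (log2 fold change -0.57, SE 2.04, adjusted p = 0.86). CXCL2, a ligand of CXCR2, was at 3.55 and 2.47 TPM and at 5.97 and 6.34 TPM (0.85, adjusted p = 0.26). The membrane-bound ligand CXCL16 was at 11.2 and 10.5 TPM and at 15.1 and 15.5 TPM (0.46, adjusted p = 0.53). For these 3 CXC genes the groups did not overlap, but how many of all genes did likewise was not counted. With NOMO-1 fitted alone the limma adjusted p was 0.036, 0.021 and 0.0083, in a fit that called 63.8% of all genes tested.

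Among NOMO-1 receptors, CCR10, the receptor of CCL27 and CCL28, went from 1.71 and 1.47 TPM to 3.75 and 3.84 TPM (log2 fold change 0.89, SE 0.12, adjusted p = 0.002). CXCR2, a receptor of CXCL8 and CXCL2, went from 8.53 and 8.12 TPM to 11.0 and 13.3 TPM (0.49, SE 0.13, adjusted p = 0.025). Of 18 alternatives 10 kept that call. It ended with median-of-ratios scaling (0.29, adjusted p = 0.25), and without NOMO-1 shNS replicate 1 or 3, NOMO-1 shALKBH5 replicate 3, or MOLM13 shNS replicate 1 or 3, with adjusted p of 0.056 to 0.14. CXCR4 did not change detectably, with 612 and 686 TPM in the controls and 632 and 607 TPM after knockdown (-0.06, SE 0.15, adjusted p = 0.77), and the ranges overlapped. With median-of-ratios scaling CXCR4 was called as lower (-0.28, adjusted p = 0.026). CCR1, the main monocyte receptor of CCL3, CCL5 and CCL23, was at 38.4 and 39.4 TPM and at 86.3 and 75.9 TPM. It was not called (1.04, SE 0.45, adjusted p = 0.11), but passed with NOMO-1 fitted alone (adjusted p = 0.0028). CX3CR1, the fractalkine receptor, was at 7.04 and 7.23 TPM and at 13.3 and 13.4 TPM (0.82, adjusted p = 0.39, and 0.0027 with NOMO-1 fitted alone). CXCR3 and CCR2 stayed low in NOMO-1, at most 1.20 and 2.84 TPM.

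With NOMO-1 fitted alone, 14 of the 25 genes were higher and 4 lower, where 63.8% of all genes tested were called (41.2% higher, 22.6% lower). With median-of-ratios scaling 3 were higher and 5 lower, and 49.7% of all genes were called (23.7% higher, 26% lower). Over all genes that scaling turned 4097 higher and 2145 lower calls into 3391 and 3716 in NOMO-1, 1513 and 4459 into 3453 and 3769 in MOLM13, 4245 and 701 into 2653 and 2450 for the difference of the effects, and 5812 and 2744 into 4919 and 4509 between the controls. It moved the median of all genes from 0.16 to 0 in NOMO-1, from -0.18 to 0.03 in MOLM13, from 0.42 to -0.01 for the difference of the effects and from 0.29 to 0.03 between the controls. Without MOLM13 shALKBH5 replicate 1, or without replicate 3, the NOMO-1 count and the share of all genes called were both above those of the main fit. The wide difference between those libraries then no longer entered the pooled spread.

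**Figure D2:**
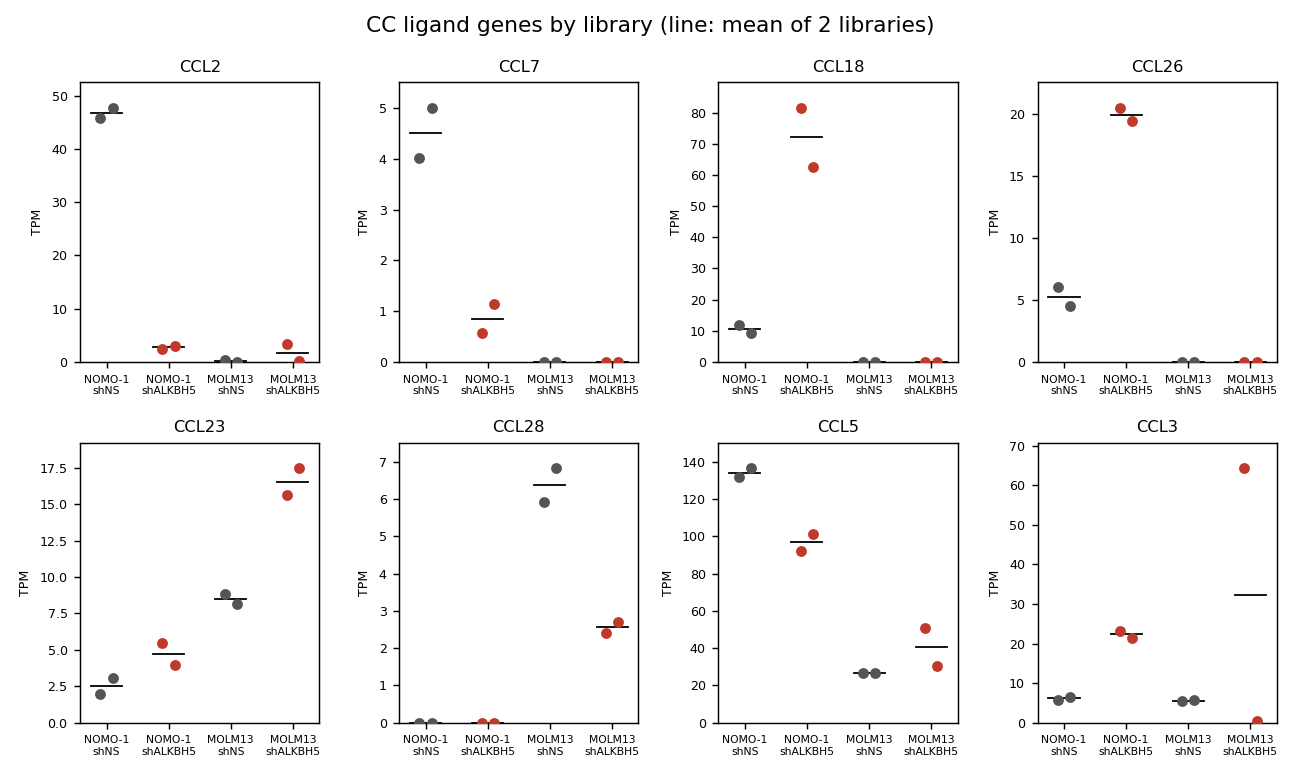
TPM of 8 CC ligand genes in each library, with a panel per gene and its own axis from 0. Points are libraries, the short line is the mean of 2 libraries, grey is shNS and red is shALKBH5. CCL2 and CCL7 are low and CCL18 and CCL26 high in NOMO-1 shALKBH5, and the red CCL3 points of MOLM13 lie at 64.2 and 0.38 TPM.

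The second comparison asked the same of MOLM13. Here most of the called genes were receptors. CCR2, the receptor of CCL2, CXCR4, the CXCL12 receptor, CCR10, CCR3 and the ligand CCL23 rose, and the mucosal ligand CCL28 and the receptor CXCR3 fell. That is 5 higher and 2 lower of 25, or 28%, beside 41.8% of all genes tested in this comparison (10.6% higher, 31.2% lower). The family's median log2 fold change was 0.53, against -0.18 over all genes tested.

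CCR2 (chromosome 3, 46353734 to 46360928) was at 80.1 and 81.1 TPM in MOLM13 shNS and at 183 and 176 TPM in MOLM13 shALKBH5, 2.22 times higher. Its log2 fold change was 1.14 (SE 0.15, adjusted p = 0.002), and both knockdown libraries moved by nearly the same amount, 1.17 and 1.12. CXCR4 (chromosome 2, 136114349 to 136118165) had 252 and 248 TPM in shNS and 538 and 402 TPM in shALKBH5, 1.88 times higher (0.89, SE 0.15, adjusted p = 0.0051). With MOLM13 fitted alone the CXCR4 call ended (adjusted p = 0.064), while that of CCR2 held (adjusted p = 0.028). With array weights the reverse was seen: the CCR2 call ended (limma adjusted p = 0.059) and that of CXCR4 held. Each gene kept its call in 17 of 18 alternatives.

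CCL23 (chromosome 17, 36013056 to 36017968) was at 8.85 and 8.18 TPM in MOLM13 shNS and at 15.7 and 17.5 TPM in shALKBH5 (log2 fold change 0.88, SE 0.2, adjusted p = 0.014). CCL28 (chromosome 5, 43376645 to 43412391), a ligand of CCR10 and CCR3 made mainly by mucosal epithelium, had 5.92 and 6.82 TPM in shNS and 2.41 and 2.70 TPM in shALKBH5. It was 2.49 times lower (-1.05, SE 0.11, adjusted p = 0.0012). Its receptor genes rose from low levels. CCR10 was at 0.88 and 0.78 TPM and at 1.69 and 1.37 TPM (0.46, SE 0.12, adjusted p = 0.022), and CCR3 at 0.66 and 0.15 TPM and at 1.27 and 1.15 TPM (0.68, SE 0.22, adjusted p = 0.049). CXCR3, the receptor of CXCL9, CXCL10 and CXCL11, had 1.84 and 1.53 TPM in shNS and 0.96 and 0.05 TPM in shALKBH5 (-0.9, SE 0.29, adjusted p = 0.046). The CCR3 and CXCR3 calls were close to the threshold. They ended, among others, when any 1 NOMO-1 library was left out (adjusted p of 0.061 to 0.08), and of 17 alternatives, 4 kept the call of CCR3 and 5 that of CXCR3. Those of CCL23 and CCR10 ended without MOLM13 shNS replicate 1 or 3, with adjusted p of 0.067 to 0.12. With MOLM13 fitted alone 2 genes were called, CCR2 higher and CCL28 lower, where 11.8% of all genes tested were called (2.68% higher, 9.09% lower).

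**Figure D3:**
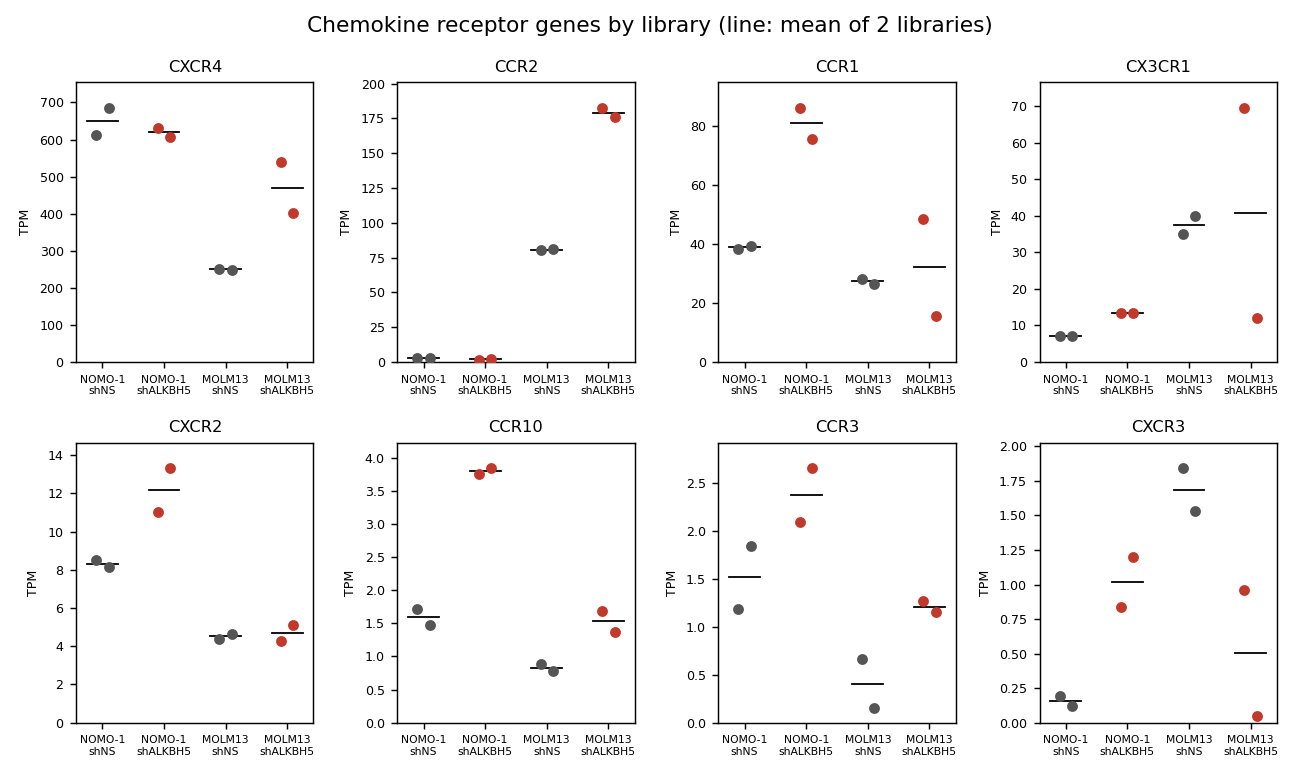
TPM of 8 chemokine receptor genes in each library, with a panel per gene and its own axis from 0. Points are libraries, the short line is the mean of 2 libraries, grey is shNS and red is shALKBH5. CCR2 and CXCR4 are higher in both MOLM13 shALKBH5 libraries, while the CCR1 and CX3CR1 points of that group lie on either side of their controls.

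The inflammatory ligands split the MOLM13 shALKBH5 libraries. CXCL8, CXCL10, the CCL3 and CCL4 genes, CCL20 and CCL24 were far above the controls in replicate 1, and near or below them in replicate 3. The difference between these libraries was at least 2 on the log2 scale for 8 of the 25 tested genes, all higher in replicate 1: CXCL8, CCL3, CCL3L3, CCL4, CCL4L2, CCL20, CCL24 and the receptor gene CX3CR1. CCL4L2 and CCL20 reached 1 TPM in only 2 libraries, replicate 1 being among them. They were tested only because replicate 1 was high, so the filter set their direction. Among all genes tested, 257 of 14302 (1.8%) differed by that much, 222 of them higher in replicate 1. None of the 8 was called in the comparison of MOLM13 groups.

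Promoters of CXCL10, CXCL8 and CCL20, and of CXCL2, which was 10.7 times higher in replicate 1 than in replicate 3, are printed to show letters of known inducible elements. They were picked after the values and matches were seen, from promoters that hold a match. Among the 8 genes named above, CCL24 also held 1 match, while CCL3, CCL3L3 and CX3CR1 held 0. Each sequence is the 250 bases before the start site in RefSeq (GRCh38.p14), 5′ to 3′ on the gene's strand. Capitals mark exact matches on either strand. The patterns were the NF-kB consensus GGGRNWYYCC, a pair of interferon-response half-sites (GAAA, then any 2 bases, then GAAA), and the AP-1 site TGAGTCA. In the consensus R is A or G, W is A or T, Y is C or T, and N is any base. CXCL10 is at chr4:76023498-76023747 (minus strand), CXCL8 at chr4:73740319-73740568 (plus strand), CXCL2 at chr4:74099196-74099445 (minus strand) and CCL20 at chr2:227813592-227813841 (plus strand).
CXCL10: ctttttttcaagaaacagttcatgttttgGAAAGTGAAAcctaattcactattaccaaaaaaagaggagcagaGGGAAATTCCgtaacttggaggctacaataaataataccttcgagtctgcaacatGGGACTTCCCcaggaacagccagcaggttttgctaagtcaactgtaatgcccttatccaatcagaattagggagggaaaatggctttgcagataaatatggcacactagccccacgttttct
CXCL8: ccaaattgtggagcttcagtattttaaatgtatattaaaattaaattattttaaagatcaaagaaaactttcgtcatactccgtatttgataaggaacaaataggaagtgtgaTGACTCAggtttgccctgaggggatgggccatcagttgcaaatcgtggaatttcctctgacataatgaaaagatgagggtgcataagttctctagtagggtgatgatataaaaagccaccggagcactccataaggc
CXCL2: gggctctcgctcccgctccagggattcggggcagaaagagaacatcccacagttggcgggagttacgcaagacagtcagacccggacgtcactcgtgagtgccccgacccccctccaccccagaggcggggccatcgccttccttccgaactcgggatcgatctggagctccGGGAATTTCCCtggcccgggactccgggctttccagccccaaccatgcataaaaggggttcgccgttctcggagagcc
CCL20: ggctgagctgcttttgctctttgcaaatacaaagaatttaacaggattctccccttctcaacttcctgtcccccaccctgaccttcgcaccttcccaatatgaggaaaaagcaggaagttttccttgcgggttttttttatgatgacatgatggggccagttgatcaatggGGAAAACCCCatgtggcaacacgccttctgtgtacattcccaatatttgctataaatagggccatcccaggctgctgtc

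CXCL10 holds 1 interferon-type match and 2 NF-kB matches, GGGAAATTCC and GGGACTTCCC. CXCL2 holds GGGAATTTCC and, overlapping it and shifted by 1 base, GGAATTTCCC. CCL20 holds 1 NF-kB match, GGAAAACCCC, and CXCL8 holds 1 AP-1 match, read on the other strand as TGAGTCA. The CXCL8 sequence also holds tggaatttcc, which departs from the NF-kB consensus in its first base only and is not marked. Sites that depart from the patterns are missed, so a sequence without a match may still hold such an element. Of the 61 genes, 43 had an entry in the promoter table. An NF-kB match was in 10 of these and in 5.05% of all 27305 promoters of this length, an interferon-type match in 3 and in 3.07%, and an AP-1 match in 6 and in 4.16%. A match describes these letters only, and whether any factor bound there was not measured.

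CXCL10 (chromosome 4, 76021117 to 76023497) was at 0.45 and 0.36 TPM in MOLM13 shNS, at 131 TPM in shALKBH5 replicate 1 and at 0.15 TPM in replicate 3. It was not tested, because only 1 library reached 1 TPM. CXCL9 and CXCL11, its neighbours with the same receptor, were listed at 0 in replicate 3 and at 2.57 and 2.27 TPM in replicate 1. In NOMO-1, CXCL10 was at 0.2 and 0.19 TPM in the controls and listed at 0 in both knockdown libraries.

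CXCL8 (chromosome 4, 73740506 to 73743716) was at 59.0 and 44.2 TPM in the MOLM13 controls, at 405 TPM in replicate 1 and at 1.71 TPM in replicate 3, 237 times apart. Its level thus lay above both controls in one library and below both in the other. The fitted log2 fold change of -0.65 (SE 2.04, adjusted p = 0.84) is the mean of 2.96 and -4.26. CCL4 was at 0.28 TPM and listed at 0 in the controls, at 97.6 TPM in replicate 1 and at 0.42 TPM in replicate 3. CCL4L1 and CCL4L2 were at 63.3 and 74.2 TPM in replicate 1, listed at 0 in replicate 3, and at most 0.44 TPM in the controls. CCL3 was at 5.38 and 5.80 TPM in the controls, 64.2 TPM in replicate 1 and 0.38 TPM in replicate 3. CCL3L3 was at 13.0 and 13.2 TPM, then 66.2 and 0.91 TPM. So CCL3, CCL3L3 and CXCL8 were below their controls in replicate 3, whereas the CCL4 genes were low in the controls as well.

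Other ligands were higher in replicate 1 than in replicate 3 as well. CCL20, the ligand of CCR6, had 0.33 and 0.53 TPM in shNS and 6.00 and 0.22 TPM in shALKBH5 replicates 1 and 3. CCL24 was at 1.70 and 1.63 TPM and at 17.8 and 1.94 TPM, and CCL2 at 0.38 TPM and listed at 0, then at 3.27 and 0.25 TPM. CXCL2 was at 0.91 and 0.51 TPM and at 3.95 and 0.37 TPM. CXCL16 was at 6.25 and 6.40 TPM and at 20.2 and 4.81 TPM, and CCL5 at 26.6 and 26.5 TPM and at 50.9 and 30.5 TPM. For CCL5 both knockdown libraries were above the controls (log2 fold change 0.55, SE 0.22, adjusted p = 0.091), and it was called with median-of-ratios scaling (0.84, adjusted p = 0.0017).

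Some receptor genes split in the same way. CCR1 was at 28.0 and 26.6 TPM in the MOLM13 controls and at 48.5 and 15.7 TPM in replicates 1 and 3, and CX3CR1 at 35.1 and 39.9 TPM and at 69.7 and 12.1 TPM. CCR7, which guides mature dendritic cells and lymphocytes to lymph nodes, was at 0.21 and 0.4 TPM and at 6.89 and 0.21 TPM. The atypical receptor gene CCRL2, outside the family as chosen here, was at 1.41 and 1.20 TPM and at 6.05 and 1.28 TPM. CXCR2, a receptor of CXCL8 and CXCL2, did not split: it was at 4.40 and 4.65 TPM and at 4.27 and 5.09 TPM, and was not called (0.04, SE 0.13, adjusted p = 0.86).

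**Figure D4:**
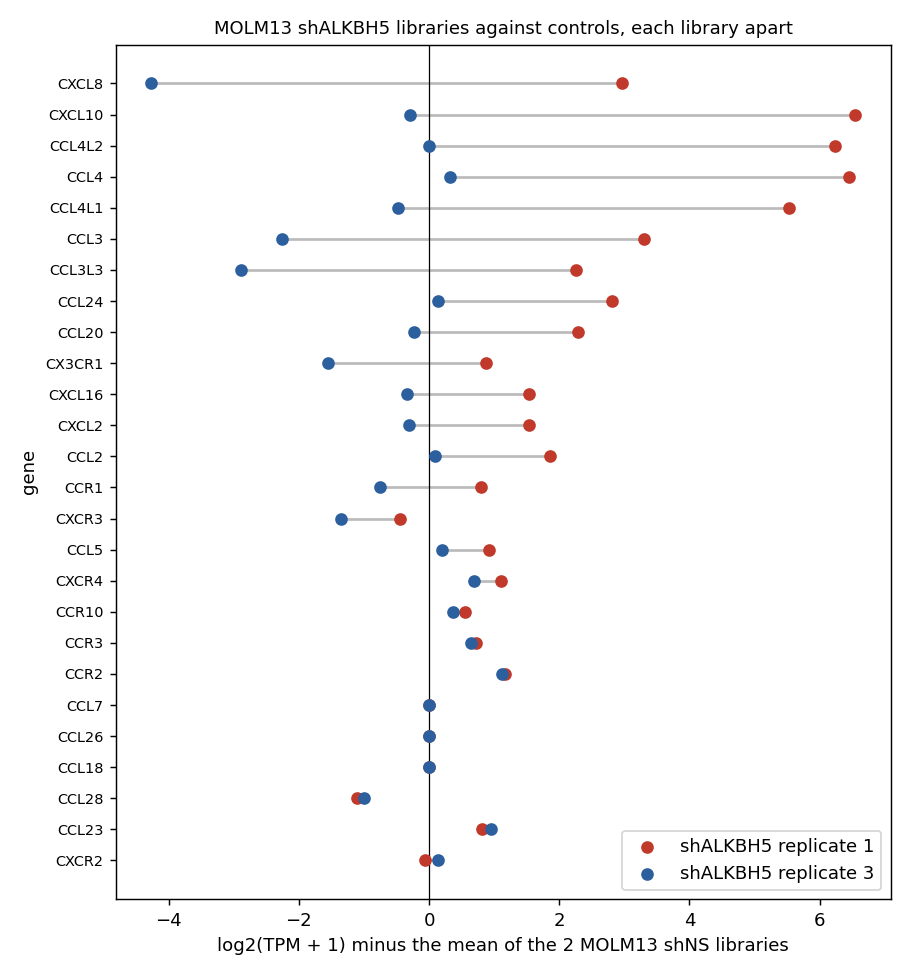
Difference of each MOLM13 shALKBH5 library from the mean of the 2 MOLM13 shNS libraries, in log2(TPM + 1), for 26 chemokine and receptor genes (24 tested ones, CCL4L1 and CXCL10). Red is replicate 1, blue is replicate 3, and genes are ordered by the gap between them, which is widest for CXCL8 at 2.96 and -4.26 and small for CCR2 at 1.17 and 1.12.

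Against the MOLM13 controls, replicate 1 had 13 of the 25 tested genes at least 2-fold higher and 1 at least 2-fold lower, with a median of 1.1. Over all genes tested, 6.1% were that much higher and 8.8% that much lower, with a median of -0.06. The 13 include CCL4L2 and CCL20, which passed the filter only through replicate 1. Replicate 3 had 1 gene higher and 5 lower with a median of 0, where 3.2% of all genes were higher and 20.6% lower. Without replicate 3, 18 of the 25 genes were called as higher and 1 as lower, beside 58.1% of all genes tested (23.4% higher, 34.7% lower). Without replicate 1 the count was 5 higher and 9 lower, beside 66% of all genes (14% higher, 52% lower). These last calls rest on 1 knockdown library, which is assumed to vary like the other groups.

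Most genes of 2 lists, the NF-kB route and the interferon route with its output genes, were also high in replicate 1. Replicate 1 lay above both controls and above replicate 3 for 16 of 19 NF-kB genes (not TLR2, TLR4 or IRAK1) and for 19 of 20 interferon genes (not MX1). In the lists described further below it did so for 10 of 20 signalling genes and 7 of 14 genes that switch receptors off. Among the further chemokine-system genes it did so for 3 of 19. The share over all genes was not counted, so these counts do not set the lists apart from other genes. Against the controls, the median of all genes tested was -0.06 in replicate 1 and -0.33 in replicate 3. The summed level of the NF-kB genes was 408 and 408 TPM in MOLM13 shNS, 1609 TPM in shALKBH5 replicate 1 and 376 TPM in replicate 3. The inhibitor gene NFKBIA, an early NF-kB target, was at 37.8 and 34.2 TPM, then 264 and 19.7 TPM. For the interferon genes the sums were 313 and 299 TPM, then 1873 and 272 TPM, with IFIT1 at 1.96 and 1.43 TPM, then 70.7 and 0.35 TPM, and ISG15 at 11.6 and 12.8 TPM, then 215 and 16.2 TPM. In NOMO-1 the same sums were 813 and 804 TPM in the controls and 948 and 943 TPM after knockdown for NF-kB, and 586 and 611 TPM against 657 and 708 TPM for interferon. The part of these genes in the chemokine levels was not tested. In the MOLM13 comparison, where 41.8% of all genes were called, 2 of 18 tested NF-kB genes were, IRAK1 higher (0.62, adjusted p = 0.002) and TLR2 lower (-1.16, adjusted p = 0.025). By limma 0 of 17 tested interferon genes were called, and 2 had an unadjusted p under 0.05.

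The knockdown effects of the lines were then set against each other, as the NOMO-1 effect minus the MOLM13 effect. Of the 25 genes, 4 had a more positive effect in NOMO-1 (CCL18, CCL26, CCL28 and CXCR3) and 5 a more negative one (CCL2, CCL5, CCL7, CCR2 and CXCR4). That is 36%, beside 34.6% of all genes tested (29.7% positive, 4.9% negative), a share near the background. For CCR2 the difference was -1.56 (SE 0.21, adjusted p = 0.0048): it rose in MOLM13, and in NOMO-1 it had 2.68 and 2.84 TPM in shNS and 1.44 and 2.25 TPM in shALKBH5. CXCR4 differed by -0.96 (SE 0.21, adjusted p = 0.018), being higher in both MOLM13 knockdown libraries and not in NOMO-1. CXCR3 differed by 1.70 (SE 0.41, adjusted p = 0.023), with 0.19 and 0.12 TPM in NOMO-1 shNS, 0.84 and 1.20 TPM in NOMO-1 shALKBH5, and the fall in MOLM13 given above. CCL2 differed by -4.65 (SE 0.75, adjusted p = 0.0076) and CCL5 by -1.02 (SE 0.31, adjusted p = 0.048). The calls of CCL5, CXCR3 and CXCR4 ended when any 1 of the 4 NOMO-1 or 2 MOLM13 shNS libraries was left out, with adjusted p up to 0.14, 0.087 and 0.08.

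CCL18, CCL26 and CCL7 were listed at 0 in all 4 MOLM13 libraries, and CCL28 in all 4 NOMO-1 libraries. Their differences between lines (2.65, 1.75, -1.58 and 1.05) are therefore the effect in the line that expresses the gene, set against a line with no measured level to change. Those zeros also enter the pooled spread of these genes and make it smaller. With NOMO-1 fitted alone CCL18, CCL26 and CCL7 stayed called at adjusted p = 0.0027, 0.0036 and 0.0084, and CCL28 stayed called with MOLM13 fitted alone (0.043).

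**Figure D5:**
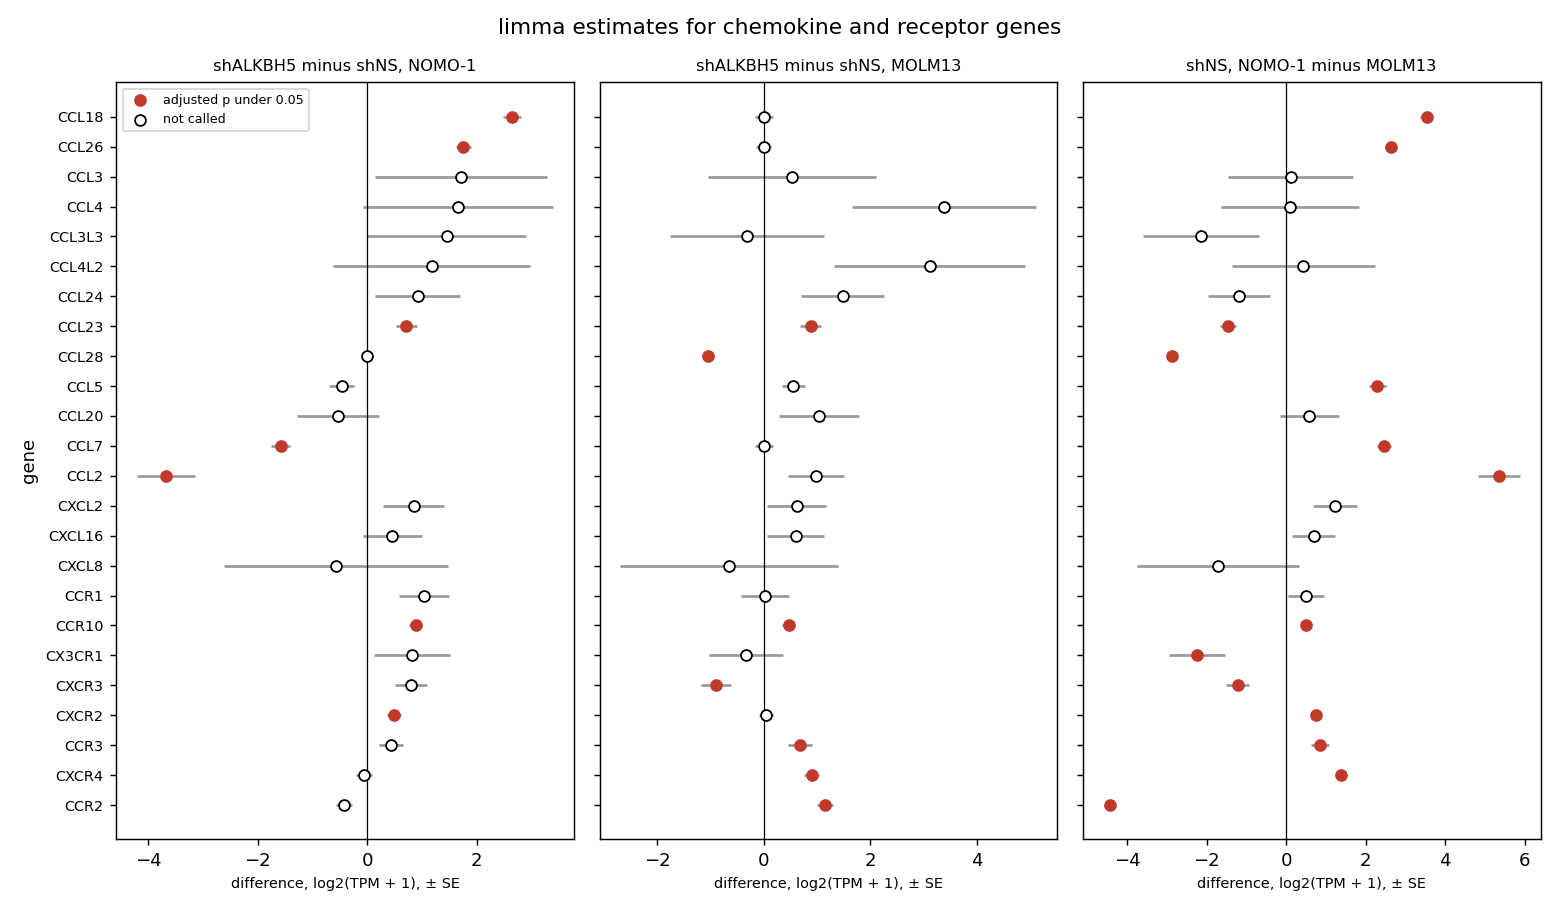
limma estimates for 24 tested genes, as differences in log2(TPM + 1) with SE, for knockdown in NOMO-1, knockdown in MOLM13, and shNS of NOMO-1 minus shNS of MOLM13. Filled points passed the adjusted threshold. CCL2 stands at -3.68 in NOMO-1, and wide error bars mark the genes in which the MOLM13 shALKBH5 libraries differ.

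The control libraries show which chemokine genes each line carries. NOMO-1 shNS had more CCL2, CCL5, CCL7, CCL18, CCL26, CCR3, CCR10, CXCR2 and CXCR4, and MOLM13 shNS had more CCL23, CCL28, CCR2, CX3CR1 and CXCR3. These 9 and 5 genes are 56% of the 25 tested, beside 59.8% of all genes tested (40.6% higher in NOMO-1, 19.2% lower), so the share is near the background. The widest contrast was between the partners CCL2 and CCR2. CCL2 was 45.9 and 47.7 TPM in NOMO-1 and 0.38 TPM and listed at 0 in MOLM13 (log2 difference 5.35, SE 0.53, adjusted p = 0.00024). CCR2 was 2.68 and 2.84 TPM in NOMO-1 and 80.1 and 81.1 TPM in MOLM13, 29.2 times higher there (-4.44, SE 0.15, adjusted p = 2.6e-06). The line with the ligand gene thus had little of the receptor gene, and the reverse.

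Other control levels ordered in the same way. CCL5 was 5.06 times higher in NOMO-1 than in MOLM13 (log2 difference 2.29, SE 0.22, adjusted p = 0.00022) and CXCR4 2.60 times higher (1.37, SE 0.15, adjusted p = 0.00036). CX3CR1 was 5.26 times higher in MOLM13 (-2.24, SE 0.69, adjusted p = 0.03), a call that 8 alternatives ended with adjusted p up to 0.12. CCL23 was 3.40 times higher in MOLM13 (-1.46, SE 0.2, adjusted p = 0.00094). CXCR2 was 1.84 times higher in NOMO-1 (0.76, SE 0.13, adjusted p = 0.003), and its call ended with median-of-ratios scaling (0.49, adjusted p = 0.056). CXCL8 was 59.0 and 44.2 TPM in MOLM13 against 15.3 and 14.4 TPM in NOMO-1, and was not called (-1.72, SE 2.04, adjusted p = 0.5) under the spread pooled with MOLM13 shALKBH5.

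Downstream of the receptors, genes of the signalling chain were measured well. Beside the 43.6% of all genes called in NOMO-1 and 41.8% in MOLM13 (medians 0.16 and -0.18), 36.8% and 52.6% of 19 tested signalling genes were called. Of these 4 were higher and 3 lower in NOMO-1 shALKBH5, with a median of -0.02, and 4 higher and 6 lower in MOLM13 shALKBH5, with a median of -0.17. PIK3CG, the phosphoinositide 3-kinase that G-protein beta-gamma subunits switch on, fell in both lines, from 51.4 and 50.7 TPM to 17.0 and 19.5 TPM in NOMO-1 (-1.44, adjusted p = 0.00036) and from 32.9 and 33.0 TPM to 12.5 and 12.2 TPM in MOLM13 (-1.34, adjusted p = 0.00037). The G-protein subunit GNG2 also fell in both (-0.64 and -1.14, adjusted p = 0.0048 and 0.0008), and the phospholipase gene PLCB2 rose in both (0.58 and 0.87, adjusted p = 0.003 and 0.00089). GNAI2, the most abundant inhibitory G-protein alpha subunit of leukocytes, fell in MOLM13 from 200 and 203 TPM to 153 and 117 TPM (-0.59, adjusted p = 0.015), and was not called in NOMO-1 (-0.32, adjusted p = 0.097).

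Genes that switch receptors off were also described. Of 13 tested, 3 were higher and 1 lower in NOMO-1 (30.8%, beside 43.6% of all genes) and 0 higher and 3 lower in MOLM13 (23.1%, beside 41.8%), with medians of 0.04 and -0.07. The receptor kinase GRK6 fell in NOMO-1 from 48.7 and 50.6 TPM to 26.7 and 26.0 TPM (-0.89, adjusted p = 0.00098) and was not called in MOLM13 (0.08, adjusted p = 0.53). RGS18, a G-protein brake of blood cells, fell in MOLM13 from 23.7 and 23.3 TPM to 7.61 and 7.88 TPM (-1.49, adjusted p = 0.00028). ARRB2, a beta-arrestin, was called in neither line (-0.08 and 0, adjusted p = 0.65 and 1).

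Of 19 further chemokine-system genes in the table that carry other names, 10 were tested. In NOMO-1 2 were higher and 3 lower (50%, beside 43.6% of all genes, median -0.2), among them MIF, a cytokine that can signal through CXCR2 and CXCR4, which fell from 315 and 301 TPM to 113 and 121 TPM (-1.39, adjusted p = 0.00035). In MOLM13 1 was higher and 1 lower (20%, beside 41.8% of all genes, median -0.08). CMTM7, a member of the chemokine-like factor family, was higher in both lines (0.78 and 0.76, adjusted p = 0.0013 and 0.0017). PF4, a platelet chemokine, was listed at 0 in all libraries.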

How the data were processed

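The authors deposited a table of TPM per gene (a transcript's length-scaled share of its library, with equal column totals). STAR, RSEM and GRCh38 are named in the submitters' processing notes, while the sources used here give no tool versions, gene annotation or strand setting. Since TPM holds no read depth, no count model or counting interval was used. Values were taken as log2(TPM + 1), with the pseudocount of 1 shrinking changes of low genes. The 14302 of 26830 genes that reached 1 TPM in 2 or more libraries were fitted with limma 3.58.1 in R 4.3.3: group means over all 8 libraries, trended empirical Bayes (4 residual and 2.29 prior degrees of freedom), two-sided, with p-values adjusted by Benjamini-Hochberg across the 14302 genes and a threshold of 0.05. The fit was tested on simulated data. There were 4 comparisons and 18 alternatives. Library values are given for genes with a group mean of at least 5 TPM or a call, and for CCL20, CCR7 and the cell-type markers named, chosen after their values were seen; outside the family they are given for at most 3 called genes per list and comparison and for genes fixed by name. The values of 1 member are not reported here, though counts include it. Members and lists were chosen with earlier results of these data known. Gene positions come from GENCODE 29. The same replicate number in both MOLM13 groups was not treated as a pairing.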

Additional observations from a re-analysis of the deposited data

Results flagged for a closer look

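The knockdown effect of 9 chemokine genes differed between the lines by limma's test of the difference itself (the NOMO-1 effect minus the MOLM13 effect, on the log2 scale). It was 2.65 for CCL18, 1.75 for CCL26, 1.05 for CCL28 and 1.70 for CXCR3, and it was -4.65 for CCL2, -1.58 for CCL7, -1.56 for CCR2, -1.02 for CCL5 and -0.96 for CXCR4. CCL18, CCL26 and CCL7 were listed at 0 in all MOLM13 libraries and CCL28 in all NOMO-1 libraries. CCR2 and CXCR4 were higher in both MOLM13 knockdown libraries. The 9 genes are 36% of the 25 tested, beside 34.6% of all genes tested, a share near the background. With a replicate block whose number was shared by all groups, limma called 0 of them and 0 of all 14302 genes tested. That setting therefore does not single out these genes.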

How the results depend on the processing

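Of 37 called results for single genes, 14 kept their call in every alternative that gave a value, and of 55 uncalled ones 45 were called in at least 1. With each line fitted alone the family had 18 calls in NOMO-1 (7 in the main analysis), 2 in MOLM13 (7) and 22 between controls (14), beside 63.8, 11.8 and 79.5% of all genes; the difference could not be fitted so. Array weights gave 19 in NOMO-1 and 1 in MOLM13, beside 67.9 and 19.7% of all genes, and a filter of 5 TPM, which tests 16 of the genes, gave 4 in MOLM13, beside 48.7%. Leaving out 1 library gave 5 to 21 in NOMO-1, 3 to 19 in MOLM13, 6 to 19 for the difference (9) and 11 to 21 between controls. The share of all genes called moved too in these fits, so the ranges do not single out the family. Leaving out a library of any group but MOLM13 shALKBH5 lowered that share in every comparison. The family's counts were then at or below those of the main analysis. Among these fits the highest counts, and the highest shares of all genes called, came without MOLM13 shALKBH5 replicate 1 or 3. The wide difference between those libraries then no longer entered the pooled spread.

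No pairing by replicate number was seen: the same-numbered MOLM13 libraries' deviations correlated at 0.0606 over 14302 genes. The NOMO-1 groups share only 1 number. This check cannot exclude a pairing, because the MOLM13 shALKBH5 libraries differed much more (SD 0.53) than the shNS libraries (0.133). With a replicate block within MOLM13 the counts were 8, 8, 9 and 15 in the order above, beside 46.8, 45.7, 39.6 and 63.3% of all genes. With a replicate block whose number was shared by all groups they were 5, 4, 0 and 13, beside 13.8, 27.8, 0 and 52.2%. So limma called 0 of all 14302 genes for the difference there, and 8 of the family had an unadjusted p under 0.05.

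The sign changed 40 times over 24 single-gene results. In 29 of these the value was called neither before nor after, and 23 of the 29 arose in settings that keep both MOLM13 shALKBH5 libraries, such as CXCL8 in NOMO-1 (0.88 with the replicate block shared by all groups). The 11 with a call all came from leaving out 1 of those libraries. Without replicate 1 and without replicate 3 in turn, the MOLM13 effect was -2.25 and 3.31 for CCL3, -2.89 and 2.25 for CCL3L3, -0.76 and 0.81 for CCR1, -1.55 and 0.88 for CX3CR1, -0.33 and 1.53 for CXCL16, and -4.26 and 2.96 for CXCL8. The difference between lines was 3.96 and -1.60 for CCL3, 4.34 and -0.80 for CCL3L3, 1.33 and -4.78 for CCL4, 0.80 and -1.07 for CXCL16, and 3.70 and -3.53 for CXCL8. Depth is unknown, so what it limits cannot be given; genes near 1 TPM are the least certain.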
